A study of Mus musculus with 6 samples.

Results

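The unfolded protein response and the integrated stress response were followed here through 33 mouse genes in osteoclasts treated with verapamil. The genes were chosen by symbol, as named components and targets of both responses, and 33 of the 33 were among the 16775 genes of the deposited count table. All 33 also passed the filter on low counts, so none of them was left out. Osteoclasts are the multinucleated cells that resorb bone, and verapamil blocks L-type voltage-gated calcium channels.

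The verapamil group held 3 libraries and the control group 2 libraries (replicates 1 and 3), all of osteoclasts derived from wild-type marrow macrophages. Both groups received 30 ng/ml M-CSF and 50 ng/ml RANKL in medium with 10% serum, and the titles of all libraries give day 5. The culture protocol in the labels runs to day 7, so the stage at harvest is not settled by the labels. The labels state neither the dose and timing of verapamil, nor a vehicle, nor the strain, sex or age of the mice, nor whether replicates came from separate animals or cultures. P-values therefore measure the spread between these libraries, which may be technical. Control replicate 2 was not analysed here.

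In the unfolded protein response, 3 sensors in the membrane of the endoplasmic reticulum (ER) detect unfolded proteins. ATF6 and the XBP1 factor made after splicing by IRE1 (gene Ern1) raise ER chaperones and the degradation machinery, whereas PERK (gene Eif2ak3) phosphorylates the translation factor eIF2. That phosphorylation is shared with other kinases in the integrated stress response. It lowers general translation but favours translation of ATF4, which raises amino acid synthesis genes and CHOP (gene Ddit3). In osteoclasts, both IRE1 with XBP1 and PERK are known to contribute to differentiation in mice. Splicing of Xbp1, phosphorylation of eIF2 and protein levels cannot be read from gene counts.

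The 33 genes moved in both directions. In edgeR's quasi-likelihood test, 4 rose and 9 fell at a Benjamini-Hochberg adjusted p under 0.05, and 20 did not pass. Among all 12619 genes tested, 9.99% were higher and 15.4% were lower. All 3 verapamil libraries were above both controls in 11 members and below both in 15, against 27.7% and 29% of all genes tested. Among the genes of ER chaperones and protein folding, Pdia3, Pdia4, Pdia6, Calr and Manf fell by modest amounts. The serine synthesis genes Psat1 and Phgdh fell by more, while the sensor Atf6, the factor Xbp1, the degradation gene Edem1 and the eIF2 phosphatase subunit Ppp1r15a rose. Ddit3 differed little between the groups, and Atf4 was higher in every verapamil library but did not pass the test.

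These calls are sensitive to the number of libraries. Of the 13 called genes, 12 lost their call when at least 1 of the verapamil replicates was left out, and 10 lost it whichever of verapamil replicates 1, 2 and 3 was left out. Leaving out a verapamil library took the calls over all genes to between 1460 and 1565, against 3200. Only 1 gene, Psat1, was called in all 13 alternative analyses. None of the 13 changed sign in any alternative. With either control left out, a single control stood for the group and its spread was not measured, so passing in those fits says little.

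Library totals were 20202340 to 21494523 estimated reads. Values per library are CPM, read counts scaled to library size after TMM correction for library makeup. Osteoclast markers were present throughout, although the 10 of them summed to 3304 to 3454 CPM with verapamil and 7026 to 7702 CPM in controls, with 7 lower and 1 higher. Macrophage markers summed to 5685 to 5885 and 8748 to 9880 CPM, with 8 of 10 lower and 0 higher. Stromal and osteoblast markers summed to 510.8 to 533 and 1272 to 1468 CPM, with 8 of 9 tested lower and 0 higher, and the same counts were obtained with DESeq2 and at an unadjusted p under 0.05. Of the 7 plasma and B cell markers analysed, all but Sdc1 were below 1 CPM on average in both groups. In bulk RNA, fewer cells of a type and less RNA per cell cannot be told apart.

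**Figure D1:**
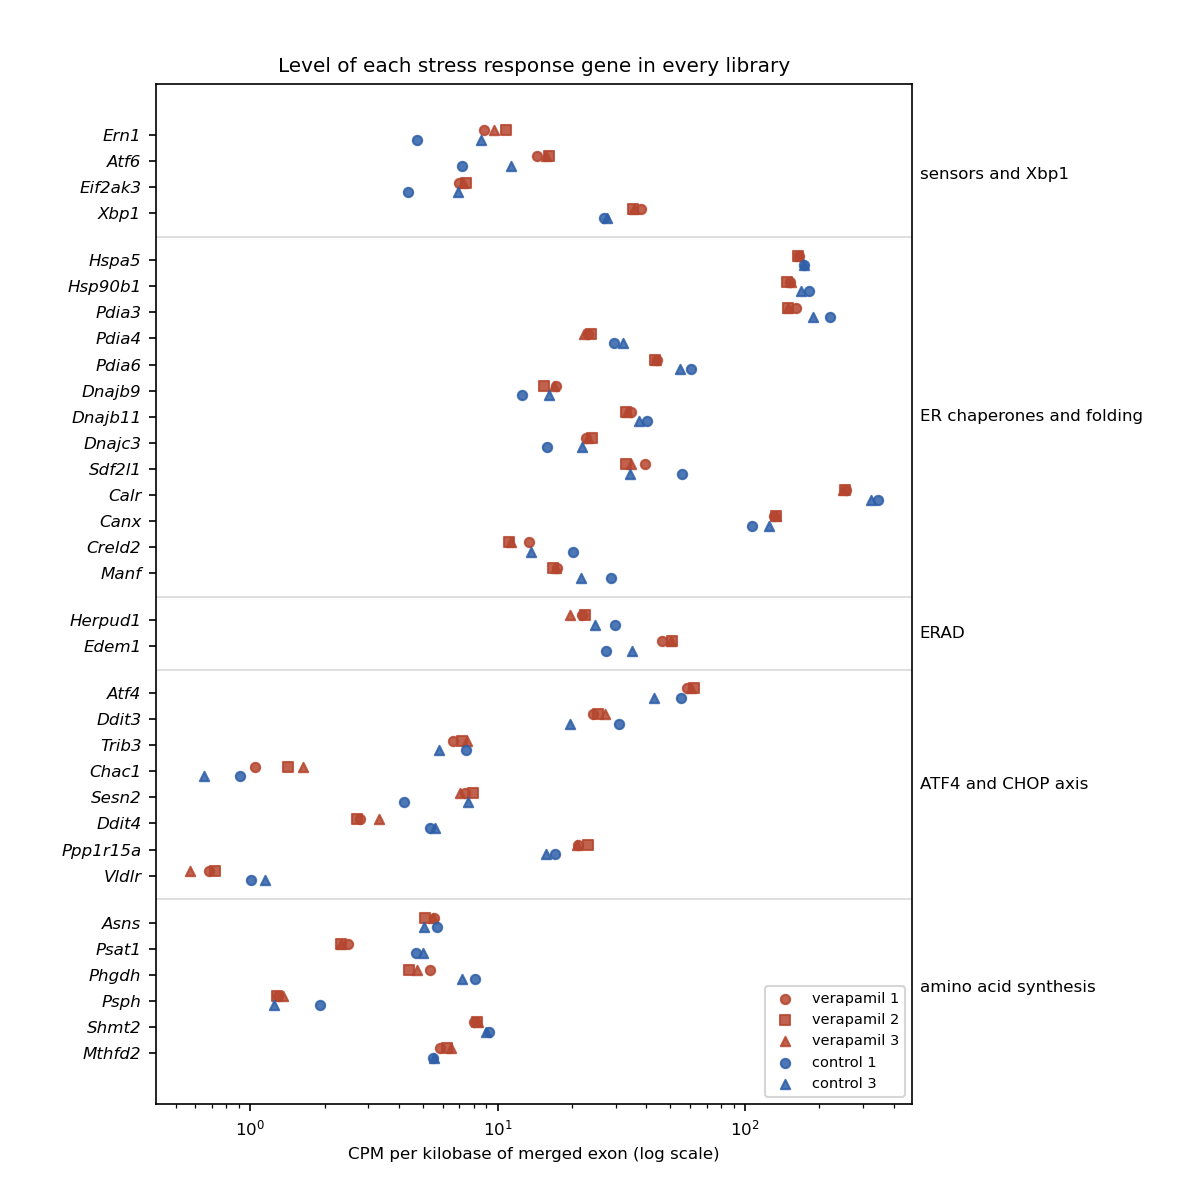
Level of each of the 33 genes in every library, as CPM per kilobase of merged exon on a log axis, with verapamil libraries in red above control libraries in blue. Calr sits highest, at 254 CPM per kilobase with verapamil and 333 in controls. With verapamil Vldlr sits lowest at 0.658, against 1.08 in controls.

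The sensors were low to moderate in level. Per kilobase of merged exon, Atf6 averaged 15.4 CPM with verapamil and 9.24 CPM in controls, Ern1 9.77 and 6.64 CPM, and Eif2ak3 7.22 and 5.64 CPM. All 4 genes of this group, the sensors and Xbp1, were above both controls in every verapamil library. Groups did not overlap for 56.7% of all genes tested, so this alone says little.

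Atf6 encodes the sensor that is cleaved in the Golgi to release a transcription factor. It had 133.7, 149.4 and 144.8 CPM in the verapamil libraries, against 66.3 and 104.2 CPM in controls 1 and 3. The controls differed from each other more than the verapamil libraries did. The rise was 0.74 on the log2 scale (SE 0.197, adjusted p = 0.0389), or 0.46 without control replicate 1 and 1.11 without control replicate 3. Leaving out any verapamil library ended the call (adjusted p 0.103 to 0.127), as did library totals alone (adjusted p = 0.11). The gene lies on chromosome 1 at 170704457 to 170868585 of GRCm38.

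Xbp1 encodes the factor spliced by IRE1. It had 123.1, 115 and 115.8 CPM with verapamil, against 87.38 and 90.3 CPM in controls. Here the controls lay close together and well below the verapamil libraries. The rise was 0.41 (SE 0.0933, adjusted p = 0.0239). It was smaller and not past the threshold under upper quartile factors (0.29, adjusted p = 0.0727) and library totals alone (0.23, adjusted p = 0.149). Without any of the verapamil replicates the adjusted p was 0.113 to 0.126.

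Ern1, the gene of IRE1, had 72.01, 88.11 and 79.36 CPM with verapamil, against 38.56 and 69.89 CPM in controls. Eif2ak3, the gene of PERK, had 42, 44.99 and 43.48 CPM, against 26.29 and 41.67 CPM. For both genes control 3 lay near the verapamil libraries and control 1 far below them. Neither passed the test (log2 0.56 and 0.36, adjusted p = 0.152 and 0.227). Against control replicate 3 alone the log2 fold changes were 0.20 and 0.07, and against control replicate 1 alone they were 1.05 and 0.73.

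**Figure D2:**
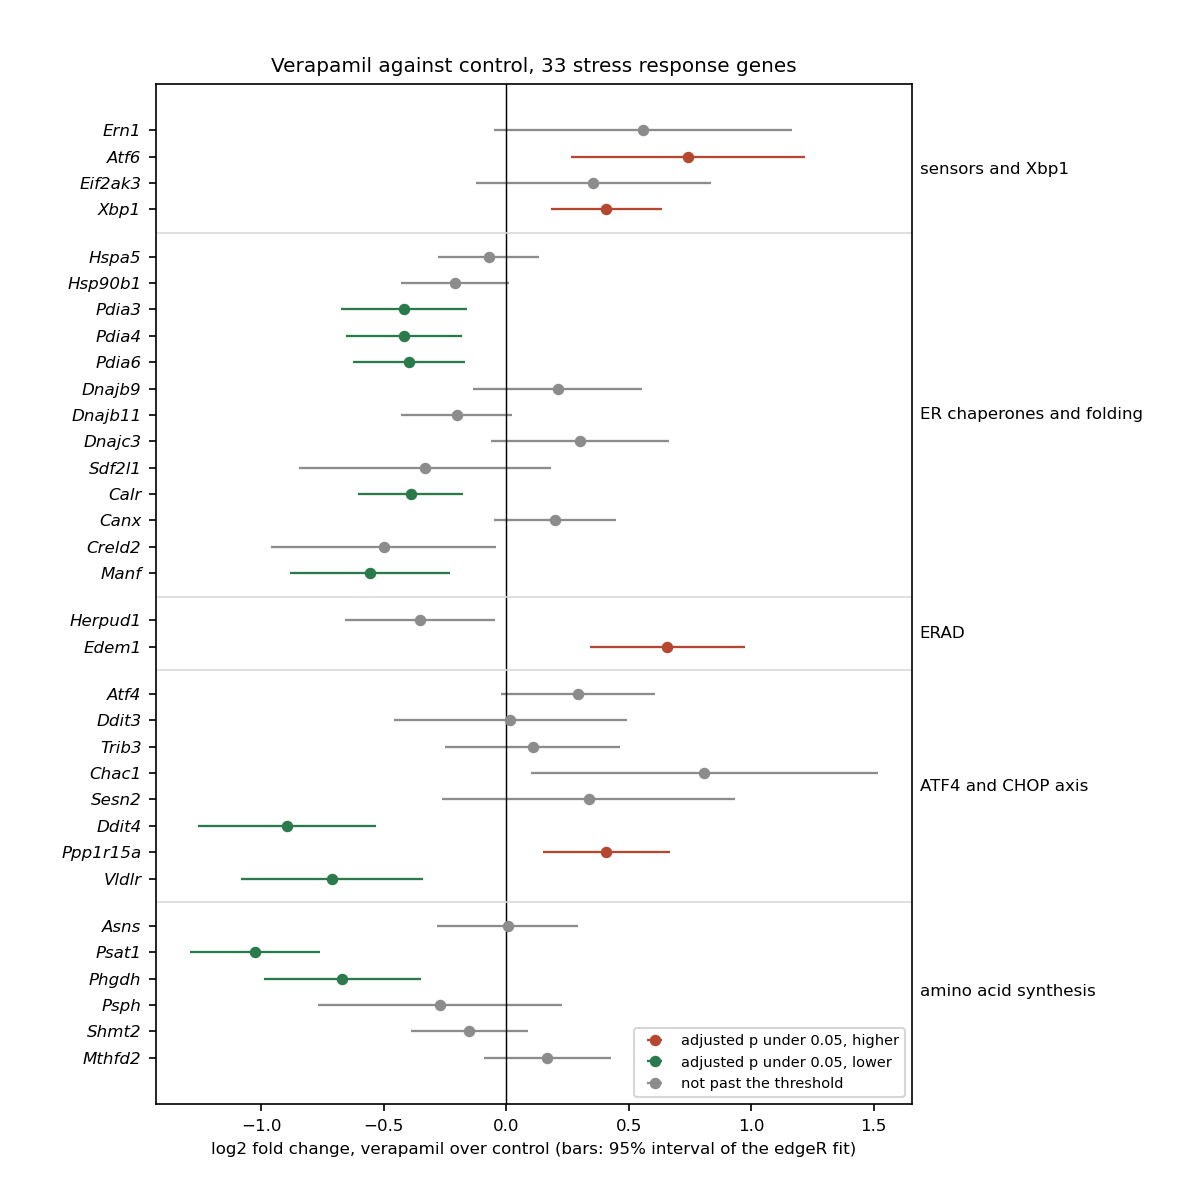
Log2 fold change, verapamil over control, of the 33 genes by role, with 95% intervals from the edgeR fit. The 9 genes that fell are Pdia3, Pdia4, Pdia6, Calr, Manf, Ddit4, Vldlr, Psat1 and Phgdh, and the 4 that rose are Atf6, Xbp1, Ppp1r15a and Edem1.

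Many ER chaperone genes carry an ER stress response element (ERSE) close to their start, the site through which ATF6 and XBP1 act together with NF-Y. CCAAT followed by CCACG after 9 bases of any kind was searched on both strands of RefSeq promoter windows (GRCm38.p6, 250 bases before to 50 after the annotated start), which matched 31 of the 33 genes, Manf and Atf6 having none. The motif was present in 7 of the 12 chaperone and folding genes with a window, 0 of 14 genes of the ATF4 arm, and 0.119% of all 32851 windows. The matches are shown because most chaperone genes here share them, each written 5′ to 3′ along the motif with its fixed letters in capitals.
Hspa5: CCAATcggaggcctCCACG
Hsp90b1 distal: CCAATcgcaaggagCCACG
Hsp90b1 proximal: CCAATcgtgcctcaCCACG
Calr: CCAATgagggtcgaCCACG
Canx: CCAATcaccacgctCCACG
Pdia6: CCAATgaaaggcggCCACG
Dnajc3: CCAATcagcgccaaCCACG
Creld2: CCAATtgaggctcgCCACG

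The shorter form ERSE-II, ATTGG followed by CCACG after 1 base, was found in the windows of Herpud1 (ATTGGgCCACG) and Dnajb11 (ATTGGcCCACG), and in 0.0365% of all windows. ERSE-II shares CCACG with ERSE, and ATTGG is CCAAT read on the other strand. The letters TGACGTGG of the unfolded protein response element, which XBP1 binds, were in 0 of the 31 genes with a window and 0.676% of windows. A match is a description of the letters and does not show a working site.

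The 250 bases upstream of Calr (chr8:84846932-84847181, minus strand) and Hspa5 (chr2:34771840-34772089, plus strand) show the element in place. Calr fell and Hspa5 did not pass the test. In both, capitals mark the ERSE, which in Calr runs on the opposite strand.
Calr: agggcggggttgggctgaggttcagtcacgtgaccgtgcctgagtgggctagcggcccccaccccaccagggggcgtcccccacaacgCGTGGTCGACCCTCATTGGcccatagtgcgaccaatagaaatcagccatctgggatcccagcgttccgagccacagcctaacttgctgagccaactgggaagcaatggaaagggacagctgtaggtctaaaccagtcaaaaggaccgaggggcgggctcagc
Hspa5: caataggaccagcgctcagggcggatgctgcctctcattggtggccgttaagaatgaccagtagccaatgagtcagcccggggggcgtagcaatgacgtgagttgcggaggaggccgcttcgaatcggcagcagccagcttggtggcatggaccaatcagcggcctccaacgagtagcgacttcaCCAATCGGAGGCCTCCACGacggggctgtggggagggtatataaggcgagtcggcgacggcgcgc

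**Figure D3:**
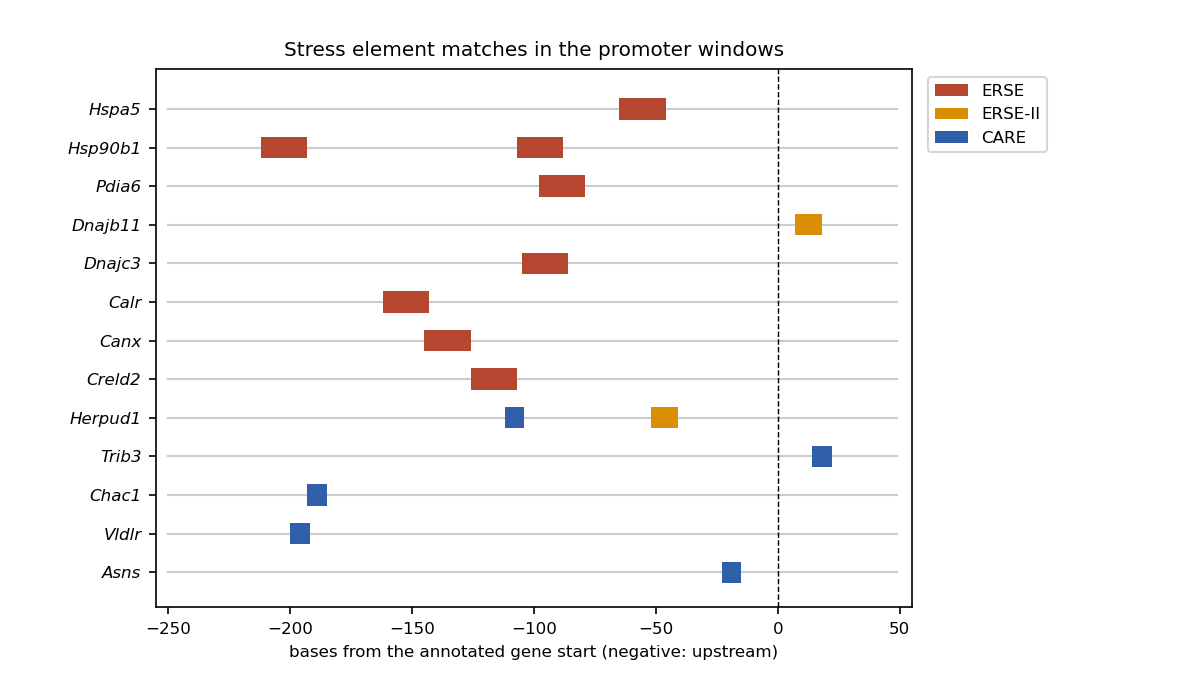
Positions of ERSE (red), ERSE-II (orange) and CARE (blue) matches in the windows of the genes that hold any, in bases from the annotated start, which is the dashed line. ERSE matches lie upstream of the start in all 7 genes that hold one, and CARE matches are in the ATF4 arm and Herpud1.

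Of the 13 chaperone and folding genes, 5 fell and 0 rose, also with DESeq2, which called 14.4% of all genes tested lower and 12.7% higher. At an unadjusted p under 0.05, 6 were lower and 0 higher, against 22% and 17.5% of all genes tested. Of these genes 10 had negative fold changes and 3 positive ones, and the median was -0.33, against -0.01 for all genes tested. Among the 7 genes with an ERSE, Calr and Pdia6 fell and the other 5 did not pass. Their log2 fold changes ran from -0.50 in Creld2 to 0.30 in Dnajc3. Of all 15 tested genes with an ERSE, these 7 included, 1 was higher and 2 were lower.

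Calr encodes calreticulin, the soluble chaperone of glycoproteins and the main calcium buffer of the ER lumen. It had 738.9, 733.2 and 720.7 CPM with verapamil, against 989.7 and 927.6 CPM in controls. The verapamil libraries lay close together and all below the controls. That is 0.763-fold of control (log2 -0.39, SE 0.0885, adjusted p = 0.0233). Canx, the gene of the membrane-bound relative calnexin, had 616.8, 630.3 and 630.6 CPM with verapamil and 503.8 and 587.5 CPM in controls, so its verapamil libraries were all higher. It did not pass the test (log2 0.20, adjusted p = 0.202).

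The protein disulfide isomerases form and rearrange disulfide bonds. Pdia3, which works with calreticulin and calnexin, had 505.8, 471.6 and 468.4 CPM with verapamil, against 693 and 593.7 CPM in controls (log2 -0.42, SE 0.107, adjusted p = 0.0347). Pdia6 had 165.8, 161.7 and 163.1 CPM, against 227.4 and 203.6 CPM (log2 -0.40, SE 0.0945, adjusted p = 0.0273). Pdia4 had 55.73, 57.28 and 53.43 CPM, against 70.88 and 77.32 CPM (log2 -0.42, SE 0.0984, adjusted p = 0.0267). The 3 genes stood at 0.749-fold, 0.759-fold and 0.748-fold of control.

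Manf encodes a small secreted protein that binds the chaperone BiP. It had 61.43, 59.19 and 60.73 CPM with verapamil, against 101.1 and 76.85 CPM in controls, the largest fall among the chaperone genes (log2 -0.56, SE 0.135, adjusted p = 0.0289). Without control replicate 1 it was -0.34. Creld2, another ER stress target that is partly secreted, had 18.25, 15.18 and 15.43 CPM, against 27.46 and 18.66 CPM, and did not pass (log2 -0.50, adjusted p = 0.103). Against control replicate 3 alone Creld2 was at -0.19, against control replicate 1 alone at -0.75. Removing the length trend also gave -0.19. Neighbouring genes overlap 9.25% of the Manf exons.

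BiP is the central chaperone of the ER. Its gene Hspa5 had 703.6, 693.4 and 700.5 CPM with verapamil, against 735.6 and 733.8 CPM in controls. Replicates of both groups were close, and the log2 fold change was -0.07 with a 95% interval of -0.28 to 0.14 (adjusted p = 0.554). Hsp90b1, the ER member of the HSP90 family, had 614.6, 597 and 620 CPM, against 732.5 and 678.1 CPM (log2 -0.21, adjusted p = 0.141). Other annotated genes overlap 15.7% of its exons. On the per-kilobase scale both were among the highest of the 33, at 165 and 151 CPM with verapamil and 174 and 175 CPM in controls.

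The J-domain cochaperones of BiP lay on both sides of 0. Dnajb11 (ERdj3), which hands substrates to BiP, had a log2 fold change of -0.20 (adjusted p = 0.156). Dnajb9 (ERdj4), which brings BiP to IRE1, had 0.21 (adjusted p = 0.308). Dnajc3, known as an inhibitor of PERK, had 0.30 (adjusted p = 0.186). Sdf2l1, a partner of ERdj3, had 43.82, 36.72 and 38.25 CPM with verapamil, against 61.62 and 38.04 CPM in controls, so that control 3 lay inside the verapamil range. Its log2 fold change was -0.33 (adjusted p = 0.283), but 0.06 without control replicate 1 and 0.03 once the trend with exon length was removed.

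Of the 2 degradation genes 1 rose. Edem1, which directs misfolded glycoproteins to ER-associated degradation (ERAD), had 297.7, 328.1 and 323.6 CPM with verapamil, against 176.7 and 224.4 CPM in controls. All verapamil libraries were well above both controls (log2 0.66, SE 0.131, adjusted p = 0.0153). It no longer passed when any verapamil library was omitted (adjusted p 0.0583 to 0.0781) or with library totals alone (adjusted p = 0.0615). Herpud1, a scaffold of the ERAD ligase complex, had 51, 52.58 and 45.94 CPM, against 69.76 and 57.55 CPM, and did not pass (log2 -0.35, adjusted p = 0.0906). Its value was -0.20 against control replicate 3 alone, -0.48 against control replicate 1 alone and -0.18 once the trend with exon length was taken out. Library totals alone gave -0.53 (adjusted p = 0.0225).

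The falls of Calr, Pdia3, Pdia4 and Pdia6 were lost without verapamil replicate 1, 2 or 3, with adjusted p from 0.11 to 0.164 over these 4 genes, at fold changes close to those above. The fall of Manf was lost in the same way (adjusted p from 0.108 to 0.118). The summed osteoclast, macrophage and stromal markers were all lower in the verapamil libraries (values given above), and their part in the chaperone values was not tested.

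Of the 14 genes of the ATF4 arm, 1 rose and 4 fell (7.14% and 28.6%, against 9.99% and 15.4% of all genes tested). Their median was 0.01. The median of the 15 chaperone and ERAD genes was 0.34 lower than that. Upper quartile factors shifted the median of all genes to -0.13 and library totals alone shifted it to -0.20, which takes the ATF4 arm to -0.12 and -0.17. Relative to the median of all genes, the ATF4 arm lay at 0.02, 0.02 and 0.03 under TMM, upper quartile factors and library totals alone, and the chaperone and ERAD genes at -0.32, -0.33 and -0.31. That offset of the chaperone and ERAD genes was -0.15 without control replicate 1 and -0.19 with the exon length trend removed. With either control left out, the gap between the medians of both arms was 0.23.

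Atf4 had 137.4, 146.1 and 142.9 CPM with verapamil, against 130.4 and 101.7 CPM in controls. Every verapamil library was above both controls, but control 1 lay near them (log2 0.29, SE 0.129, adjusted p = 0.145). Without control replicate 1 the log2 fold change was 0.49 (adjusted p = 0.00128), and without control replicate 3 it was 0.12 (adjusted p = 0.163). Upper quartile factors and library totals alone gave 0.17 and 0.12. Atf4 activity depends largely on translation, which these counts do not measure.

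Ddit3, which encodes the cell death factor CHOP, had 41.61, 43.75 and 46.43 CPM with verapamil, against 53.08 and 33.81 CPM in controls. The controls lay on either side of the verapamil libraries. The log2 fold change was 0.02, with a wide 95% interval of -0.46 to 0.49 (adjusted p = 0.959). Set against control replicate 3 alone it was 0.38, and against control replicate 1 alone -0.27, so the sign depended on the control used. The pseudokinase gene Trib3, a CHOP target, had 14.07, 15.29 and 15.97 CPM with verapamil, against 15.78 and 12.3 CPM in controls (log2 0.11, adjusted p = 0.613), or 0.30 without control replicate 1 and -0.06 without control replicate 3.

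Chac1, which encodes a glutathione-degrading enzyme, was weakly expressed, with 1.721, 2.324 and 2.662 CPM with verapamil and 1.483 and 1.067 CPM in controls. It had the largest positive fold change of the 33 genes without passing the test (log2 0.81, SE 0.292, adjusted p = 0.0917). Ppp1r15a (GADD34), the phosphatase subunit that reverses eIF2 phosphorylation, had 62.17, 68.33 and 61.32 CPM, against 50.16 and 46.19 CPM, and rose by 0.41 (SE 0.107, adjusted p = 0.0375). The rise missed the threshold with any verapamil library omitted (adjusted p 0.124 to 0.183), with the stricter filter on low counts, under upper quartile factors (log2 0.29, adjusted p = 0.114) and with library totals alone (log2 0.23, adjusted p = 0.169).

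Ddit4 (REDD1) and Sesn2 both restrain mTORC1. Ddit4 had 4.869, 4.752 and 5.816 CPM with verapamil, against 9.349 and 9.82 CPM in controls. It fell to 0.537-fold (log2 -0.90, SE 0.15, adjusted p = 0.0086), and the call was lost only without verapamil replicate 1 (adjusted p = 0.0502). Sesn2, a leucine sensor, had 25.67, 27.58 and 24.4 CPM, against 14.52 and 26.43 CPM, so control 3 matched the verapamil libraries (log2 0.34, adjusted p = 0.341). The lipoprotein receptor gene Vldlr, an ATF4 target, had 6.837, 7.283 and 5.767 CPM, against 10.2 and 11.53 CPM, and fell by 0.71 (SE 0.154, adjusted p = 0.0198), which missed the threshold with any verapamil library omitted (adjusted p 0.0562 to 0.0885).

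Serine synthesis held both falls among the amino acid synthesis genes. Psat1, the aminotransferase of serine synthesis, had 10.57, 9.917 and 9.858 CPM with verapamil, against 19.96 and 21.22 CPM in controls. Both groups were tight and widely separated, and the fall to 0.491-fold was the largest of the 33 genes (log2 -1.02, SE 0.11, adjusted p = 0.00189). Its adjusted p stayed at or below 0.0198 in all 13 alternatives. Phgdh, the first enzyme of the same pathway, had 13.23, 10.9 and 11.78 CPM, against 20.18 and 17.93 CPM (log2 -0.67, SE 0.132, adjusted p = 0.0148), and lost its call without verapamil replicate 2 or 3. Psph, the phosphatase of the last step, had 5.607, 5.526 and 5.866 CPM, against 8.27 and 5.422 CPM. It did not pass (log2 -0.27, adjusted p = 0.357), and its value was 0.07 without control replicate 1.

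Outside serine synthesis no gene of this group passed the test. Asns, the asparagine synthetase and a standard readout of ATF4, had 15.15, 13.89 and 15.03 CPM with verapamil, against 15.51 and 13.79 CPM in controls. Its log2 fold change was 0.00, with a 95% interval of -0.28 to 0.29 (adjusted p = 0.981). The mitochondrial one-carbon enzymes Shmt2 and Mthfd2 had log2 fold changes of -0.15 and 0.17 (adjusted p = 0.296 and 0.281). Of the 6 amino acid synthesis genes 2 fell and 0 rose, with the same counts by DESeq2 and at an unadjusted p under 0.05, where 22% of all genes tested were lower and 17.5% higher.

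ATF4 binds with C/EBP partners to a composite element (CARE), searched here as TGATGNAA on both strands. It was present in 4 of the 14 genes of the ATF4 arm (Trib3, Chac1, Vldlr and Asns), in Herpud1, and in 3.97% of all windows. Among those 5 genes Vldlr fell and none rose, with log2 fold changes from -0.71 to 0.81. Of all 282 tested genes with a CARE, 27 were higher and 39 lower. The upstream 250 bases of Asns (chr6:7693210-7693459, minus strand) and Chac1 (chr2:119350992-119351241, plus strand) are shown as examples with the element near to and far from the start. Capitals mark the CARE, which in Chac1 runs on the opposite strand.
Asns: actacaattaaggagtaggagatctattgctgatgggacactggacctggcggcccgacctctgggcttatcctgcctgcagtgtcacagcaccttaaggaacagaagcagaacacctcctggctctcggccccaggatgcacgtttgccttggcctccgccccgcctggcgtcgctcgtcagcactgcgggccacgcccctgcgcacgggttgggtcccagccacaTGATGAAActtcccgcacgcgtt
Chac1: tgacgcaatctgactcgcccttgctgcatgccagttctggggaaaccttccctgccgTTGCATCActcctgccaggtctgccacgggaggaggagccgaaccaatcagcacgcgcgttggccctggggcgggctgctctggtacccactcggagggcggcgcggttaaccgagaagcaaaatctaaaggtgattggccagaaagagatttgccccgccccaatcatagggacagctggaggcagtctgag

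**Figure D4:**
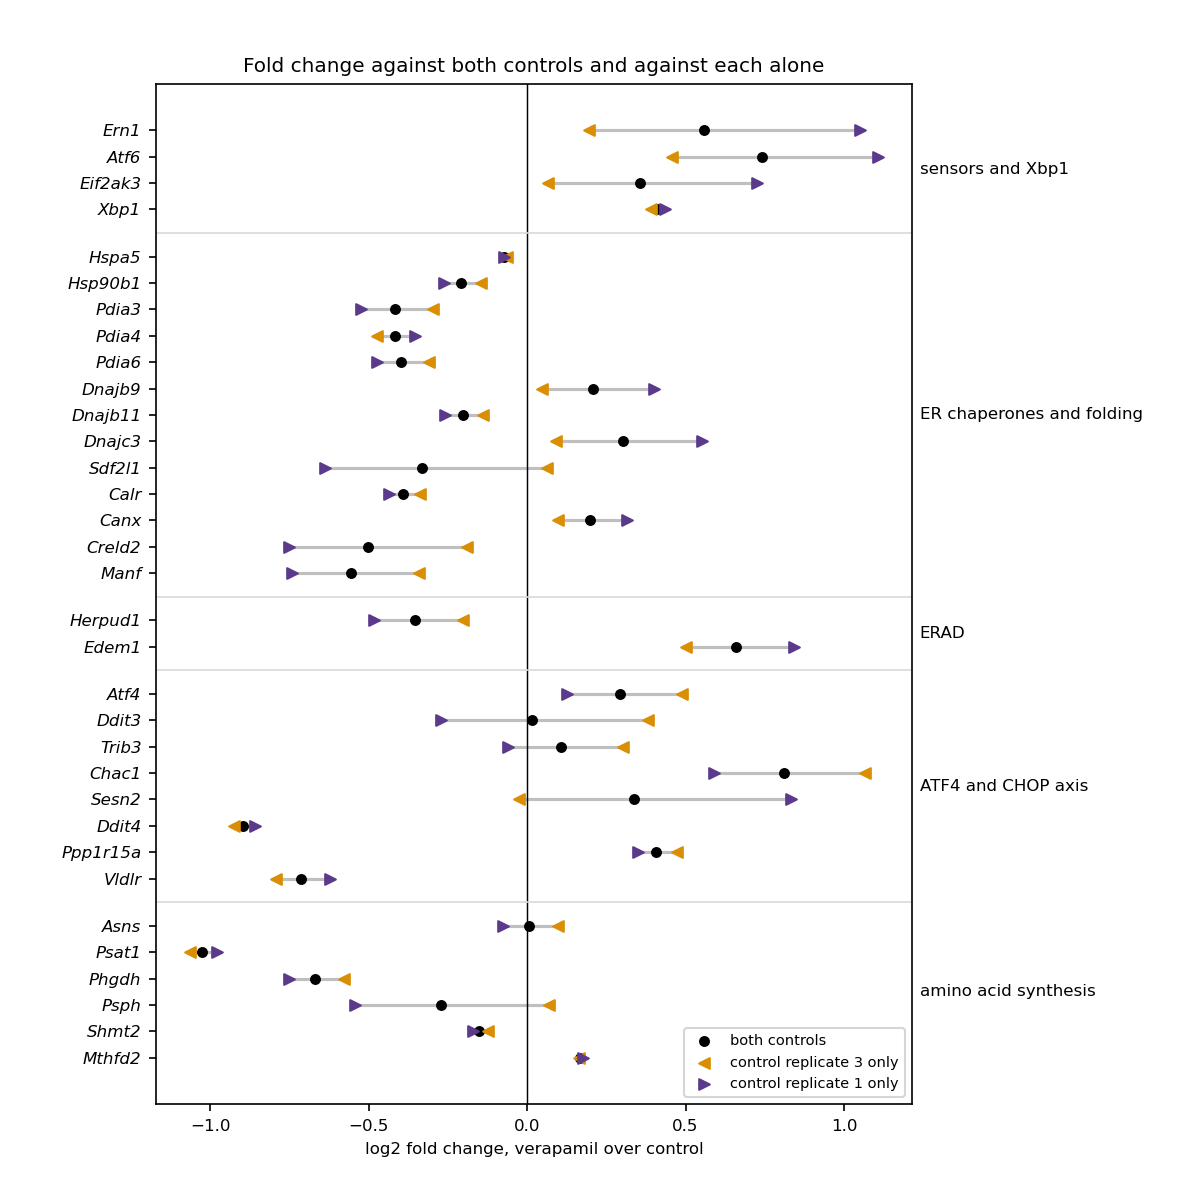
Log2 fold change of the 33 genes against both controls (black), against control replicate 3 alone (orange) and against control replicate 1 alone (purple). Xbp1, Hspa5, Psat1 and Ddit4 hold nearly the same value against either control, whereas Ern1, Eif2ak3, Sesn2, Ddit3 and Sdf2l1 depend on it.

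The controls differed with exon length, and so did the groups. In the 3081 shortest genes (126 to 2857 exon bases) the median log2 ratio of control 1 over control 3 was 0.33 and the median of verapamil over control was -0.21. In the 3080 longest (6906 bases and more) they were -0.43 and 0.16. Short members such as Sdf2l1 (1108 bases) and Creld2 (1366 bases) were higher in control 1, and long ones such as Ern1 (8173 bases) and Atf6 (9231 bases) were lower there. With the trend of each library with length removed, 6 of the 33 genes were higher and 8 lower. In that fit 15.4% of all genes tested were higher and 18.4% lower, so calls were more frequent throughout. Atf4 (log2 0.47, adjusted p = 0.00538) and Chac1 (log2 1.09, adjusted p = 0.0231) were then past the threshold, and Pdia4 was not (log2 -0.27, adjusted p = 0.161). Xbp1 (0.48), Atf6 (0.62), Edem1 (0.58), Manf (-0.50) and Psat1 (-1.02) kept their calls. The medians were then 0.17 for the ATF4 arm and -0.18 for the chaperone and ERAD genes. RNA integrity was not stated in the labels, and its part in the trend was not tested.

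Further genes of both responses were listed by pathway. Among 27 other tested ATF4 and CHOP targets 8 rose and 5 fell (29.6% and 18.5%, against 9.99% and 15.4% of all genes tested). Gadd45a, a growth arrest gene, had 267.2, 251.7 and 249.5 CPM with verapamil, against 109.4 and 78 CPM in controls, and rose by 1.45 (SE 0.162, adjusted p = 0.00214). The opposite-strand transcript E230016M11Rik overlaps 19.1% of its exons. Slc7a11, the cystine importer, had 236.8, 294.5 and 287.1 CPM, against 87.92 and 123.2 CPM, and rose by 1.37 (SE 0.183, adjusted p = 0.00386). Both genes respond to other pathways as well as to ATF4. Jdp2, a bZIP factor that promotes osteoclast differentiation in mice, had 27.45, 22.78 and 23.71 CPM, against 75.42 and 94.87 CPM, and fell by 1.79 (SE 0.145, adjusted p = 0.000852). The stress-inducible chromatin protein gene Nupr1 had a log2 fold change of -1.27 (SE 0.226, adjusted p = 0.0103), which was -0.84 against control replicate 3 alone and -1.61 against control replicate 1 alone. Omitting verapamil replicate 1 ended its call (adjusted p = 0.0551).

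Of 17 tested genes of the eIF2 kinases, eIF2, its exchange factor and related regulators, 4 rose and 1 fell. The shares were 23.5% and 5.88%, against 9.99% and 15.4% of all genes tested. The GCN2 inhibitor gene Impact had 124.7, 133.5 and 136.4 CPM with verapamil, against 63.15 and 81.46 CPM in controls (log2 0.86, SE 0.136, adjusted p = 0.0069). Eif2ak4, which encodes the amino acid sensor GCN2 itself, rose by 0.68 (adjusted p = 0.034), or 0.45 against control replicate 3 alone, and Ppp1r15b, the constitutive counterpart of GADD34, rose by 0.66 (adjusted p = 0.0229). Eif2b3, a subunit of the exchange factor, fell by 0.56 (adjusted p = 0.0302). Apart from Impact, these calls were lost without verapamil replicate 1, 2 or 3. Of 20 tRNA synthetases 2 rose, Qars by 0.49 and Sars by 0.49 (adjusted p = 0.0178 and 0.0129), with the same loss, and with 0.31 for each and no call with library totals alone. The share that rose was 10%, against 9.99% of all genes tested. No tRNA synthetase fell, either with DESeq2 or at an unadjusted p under 0.05.

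Of 34 other ER folding genes 1 rose and 5 fell (2.94% and 14.7%, against 9.99% and 15.4% of all genes tested). The gene that rose was Ero1b, with 29.9, 31.92 and 33.32 CPM with verapamil, against 16.81 and 19 CPM in controls (log2 0.824, adjusted p = 0.00495). Of those that fell, Ppib was abundant, with 126.2, 126 and 128.8 CPM with verapamil and 232 and 154.4 CPM in controls (log2 -0.605, adjusted p = 0.0473). Its controls differed, control 1 being above control 3 by 0.586 on the log2 scale. Neither Ero1b nor Ppib was followed through the alternative analyses. The other 4 genes that fell were weakly expressed. Fkbp7, a prolyl isomerase, had 2.853, 2.479 and 2.218 CPM with verapamil, against 7.012 and 5.465 CPM in controls (log2 -1.31, adjusted p = 0.00589). Its relatives Fkbp14 and Fkbp11 fell by 1.23 and 1.59 (adjusted p = 0.00533 and 0.0198), and the isomerase gene Pdia5 fell by 1.23 (adjusted p = 0.00611). The Fkbp11 call was lost without verapamil replicate 1 or 2. Summed levels of osteoclast, macrophage and stromal markers were also lower with verapamil, and their part in these falls was not tested.

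Among 13 other transducers, Creb3l1, a membrane-bound factor known from collagen-secreting cells, fell by 1.04 (4.328, 5.217 and 4.338 CPM with verapamil, against 10.38 and 8.624 CPM in controls; adjusted p = 0.00699). Creb3l3 fell by 1.13 (adjusted p = 0.018), and Mbtps2, the site-2 protease that cleaves ATF6, rose by 0.62 (adjusted p = 0.0319), both calls being lost without verapamil replicate 1, 2 or 3. Yy2 overlaps 28.4% of the Mbtps2 exons. Of 25 other ERAD genes 3 rose (Stt3b, Edem2 and Ubxn4, by 0.49, 0.46 and 0.39, adjusted p = 0.0139, 0.0423 and 0.0348) and 0 fell. The edgeR shares were 12% higher and 0% lower, against 9.99% and 15.4% of all genes tested. DESeq2 called 5 higher and 0 lower, against 12.7% and 14.4% of all genes tested. At an unadjusted p under 0.05 there were 7 higher and 0 lower, against 17.5% and 22% of all genes tested. The 3 edgeR calls were lost in the same fits and with library totals alone (0.30, 0.28 and 0.21).

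With DESeq2, 2 of 32 translocation genes rose and 3 fell, against 12.7% and 14.4% of all genes tested. In edgeR's test 0 rose and 2 fell (0% and 6.25%, against 9.99% and 15.4% of all genes tested). They were Ddost (log2 -0.40, adjusted p = 0.0415), a subunit of the oligosaccharyltransferase, and Srp54a (log2 -0.70, adjusted p = 0.0393), which has close copies in the mouse genome so that its count is uncertain. Srp54a was at -0.36 against control replicate 3 alone and -0.98 against control replicate 1 alone, and Ddost was at -0.21 with the length trend removed (adjusted p = 0.0838). Of 15 other one-carbon enzymes 2 rose and 3 fell (13.3% and 20%, against 9.99% and 15.4% of all genes tested). Aldh1l1, a folate dehydrogenase, had 24.54, 24.12 and 23.02 CPM with verapamil, against 14.38 and 14.52 CPM in controls, and rose by 0.73 (SE 0.105, adjusted p = 0.00503), while other genes overlap 13.4% of its exons. Tyms and Mthfd1l fell by 1.29 and 0.64 (adjusted p = 0.0117 and 0.0221). Tyms lost its call without verapamil replicate 1 or 2, and Ddost, Srp54a and Mthfd1l without verapamil replicate 1, 2 or 3.

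**Figure D5:**
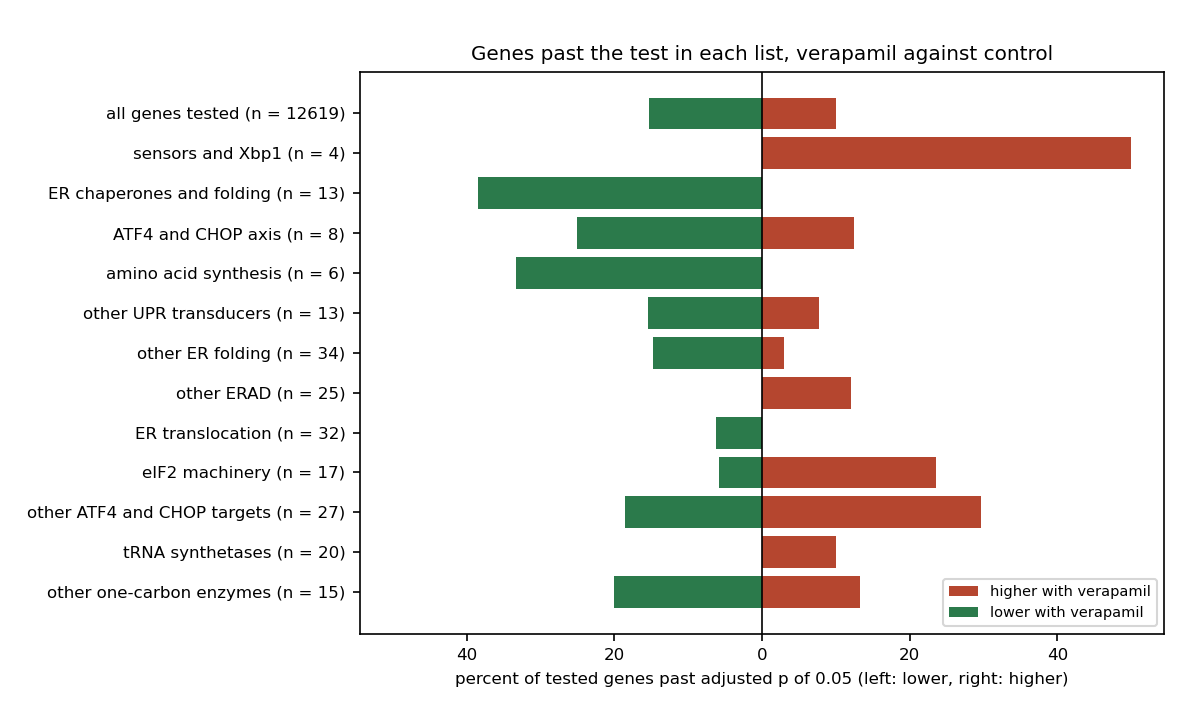
Percent of tested genes in each list past an adjusted p of 0.05 in edgeR's test, lower with verapamil to the left and higher to the right, with all 12619 genes in the top bar. The chaperone and folding genes have calls to the left alone, over 13 genes. The sensors together with Xbp1 have calls to the right alone, over 4 genes, and these calls are Atf6 and Xbp1.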

How the data were processed

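The authors deposited estimated counts of reads per gene, with decimals and, judged from the values, not normalized. GRCm38 and mm10 appear as builds per the submitters' processing notes. Aligner, counting program, annotation and strand setting: not given in the sources used here. Libraries were made with a SMARTER mRNA kit, per the labels' protocols. Control replicate 2 was not analysed here, so the test ran on 3 against 2 libraries.

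Counts were rounded. In R 4.3.3, edgeR 4.0.16 scaled libraries by TMM, applied its expression filter (minimum count 10, minimum total 15) and fitted a quasi-likelihood model with group as the only term, leaving 12619 genes. Benjamini-Hochberg adjustment ran over all of them, with calls under 0.05. Standard errors are the absolute log2 fold change over the square root of F. Positive values mean higher with verapamil. DESeq2 1.42.0, other scalings and filters, a replicate block, each library left out and, chosen after seeing the data, a fit without the exon length trend were alternatives. Positions are from RefSeq (GRCm38.p6), and exon lengths and overlaps from GENCODE M21 by Python 3.11.15.

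The members and gene lists were chosen with earlier results of these data known. All 33 members were named, with up to 4 called genes of at least 1 CPM from each other list, those with the largest changes. Ppib and Ero1b were added after their values were seen. Some genes of these lists are not reported here. The fit was tested on simulated data. Every pair of libraries differed by more than counting noise.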

Additional observations from a re-analysis of the deposited data

How the results depend on the processing

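Over all genes, 3200 calls became 1460 to 7808 when single libraries were left out. The members called higher were then 0 to 10 and those called lower 2 to 16, against 4 and 9, while the median of the ATF4 arm ran from -0.124 to 0.083 and that of the chaperone and ERAD genes from -0.371 to -0.147. Upper quartile factors gave 2 higher members, with 7.25% of all genes higher, and medians of -0.116 and -0.461. Library totals alone gave 0 higher and 13 lower members, against 4.96% and 23.1% of all genes, and medians of -0.165 and -0.503. Without the exon length trend the medians were 0.174 and -0.176.

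The labels do not say that a replicate number marks a shared animal or batch. Deviations of same-numbered libraries correlated at 0.289 (replicates 1) and 0.022 (replicates 3), and verapamil replicate 2 with control replicate 3 also at 0.289. With 2 controls, whose deviations mirror each other, these values cannot settle whether the numbers pair the libraries, and the numbers were not taken as a pairing. With the replicate block, which leaves 1 residual degree of freedom, 3 members were higher and 5 lower of 3317 calls. Of all genes tested, 10.6% were then higher and 15.7% lower. The chaperone and ERAD median was -0.243. The block ended the calls of Calr, Pdia3, Pdia4, Pdia6, Xbp1 and Ppp1r15a (adjusted p = 0.157, 0.15, 0.0922, 0.15, 0.099 and 0.198), and Ern1 passed.

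Signs turned in members that were not called. Ddit3 was -0.115 under upper quartile factors, -0.156 with library totals alone and -0.030 with the stricter filter, and -0.272 to 0.382 with single libraries left out. Asns was -0.117, -0.175 and -0.040 in these 3 settings, and -0.076 to 0.097 with libraries left out. Trib3 was -0.019 and -0.070 in the first 2 of them, and -0.062 to 0.302 with libraries left out. Mthfd2 was -0.015 with library totals alone. With libraries left out Sesn2 ran from -0.026 to 0.834, Psph from -0.544 to 0.069 and Sdf2l1 from -0.637 to 0.063, and Sdf2l1 was 0.032 without the length trend. The causes were not tested. Of 428 values of members under alternatives, 340 kept sign and side of the threshold. A member that did not pass is not shown to be unchanged.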
